A study of Sus scrofa with 21 samples.

Results

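The genes described here are 8 sensors, adaptors and cytokines of the inflammasome, the NOD receptors and the interleukin 1 family, namely NLRP3, PYCARD, CASP1, IL1B, IL18, IL1RN, NOD1 and NOD2. They were chosen by the gene name that the array files give to a probe, without regard to letter case, and 16 of 60306 probes carried such a name, for 8 of 47053 features. A probe without a gene name counts as a feature of its own. Values came from whole blood RNA of 10 DD and 11 Large White (LW) pigs, taken at 60 days of age, and each pig had its own single-colour array of an Agilent pig design. DD pigs (SLAdd in the labels) are minipigs of a herd kept inbred and homozygous at the SLA locus, the major histocompatibility complex of the pig. LW pigs, a lean commercial breed, served as controls, and all animals received a standard diet ad libitum. The DD pigs came from 5 litters and the LW pigs from 6, mostly as sibling pairs, so a breed difference here is a difference between these litters of 1 herd each. The comparison asks how blood gene expression of the DD herd differs from that of LW pigs.

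NLRP3 and the NOD receptors detect microbial products and cell damage in the cytosol. Activated NLRP3 assembles with the adaptor PYCARD (also called ASC) and the protease CASP1, which cuts the precursors of the cytokines IL1B and IL18 into their secreted forms. IL1RN is a secreted antagonist that occupies the interleukin 1 receptor, while NOD1 and NOD2 recognize fragments of bacterial peptidoglycan and signal to NF-kappaB and MAP kinases. In blood, these genes are mainly known from monocytes and neutrophils.

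The probes are 60 bases long, and at least 1 probe is shown for each member except NOD2, so that it can be seen what was measured and where probes of a gene overlap. For IL18, the capitals mark the 42 bases that 2 of its 3 probes share:
A_72_P232887: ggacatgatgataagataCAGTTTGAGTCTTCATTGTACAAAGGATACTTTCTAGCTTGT
O14565: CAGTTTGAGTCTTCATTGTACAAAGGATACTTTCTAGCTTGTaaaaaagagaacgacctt
A_72_P652365: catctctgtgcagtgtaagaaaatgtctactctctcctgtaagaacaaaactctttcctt
The 2 NLRP3 probes, A_72_P002976 and O572, have the same sequence and are separate spots of it:
NLRP3: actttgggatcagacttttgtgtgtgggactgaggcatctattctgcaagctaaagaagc
For the cytokine IL1B, its antagonist IL1RN, the protease CASP1 and the adaptor PYCARD, the following probes are printed in lower case, since no part of them is set apart:
IL1B, O8281: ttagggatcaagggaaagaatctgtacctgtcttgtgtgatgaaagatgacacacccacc
IL1RN, A_72_P441444: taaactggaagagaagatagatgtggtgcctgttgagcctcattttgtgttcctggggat
CASP1, A_72_P035541: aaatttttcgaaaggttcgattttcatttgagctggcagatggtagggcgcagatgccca
PYCARD, O4976: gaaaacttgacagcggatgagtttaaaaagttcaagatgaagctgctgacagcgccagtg
NOD1 has a pair of probes with no shared stretch:
A_72_P440171: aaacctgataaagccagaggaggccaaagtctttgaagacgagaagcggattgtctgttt
O7653: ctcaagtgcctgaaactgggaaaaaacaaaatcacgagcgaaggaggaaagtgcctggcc

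Both breeds lay on each of the 3 chips. The share of probes that the scanner software flagged as well above background ran from 44.7% to 63.8%, and DD arrays were dimmer, with a median share of 51.9% against 59.7% in LW pigs. Array brightness, taken as the log2 processed signal at the 75th percentile, ranged from 6.56 to 8.49 over the DD arrays and from 7.37 to 8.62 over the LW arrays. Of the 34393 features tested, 20.9% had an adjusted p below 0.05 (limma with Benjamini-Hochberg adjustment), 11.4% higher and 9.41% lower in DD pigs. Without chip 3, for which the study's methods report a technical bias, 524 features were called in place of 7172. Without chip 1 the count was 7697, and without chip 2 it was 4807. The fit also takes a correlation between siblings, which was −0.11 with all chips and 0.22 without chip 3. What lowered the count was not tested. The arrays held blood cell RNA as labelled: 7 of 7 T cell and 7 of 7 erythroid markers and 8 of 11 monocyte markers were well above background on all 21 arrays. The pig DD_06 stood apart in the median of interferon-stimulated genes, at 12.06 against 10.63 in the next pig. It was also highest in monocyte markers, at 8.29, close to DD_23 at 8.13. The member results are given with and without DD_06.

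None of the 7 members that could be tested differed between the breeds beyond the threshold (0 of 7 called, where 20.9% of all features were, and 1 of 7 with an unadjusted p below 0.05, where 36.6% of all features were). IL18 had the largest estimate, lower in DD pigs by a log2 FC of −0.87, and IL1RN the next, higher by 0.43. The median size of the difference was 0.24 on the log2 scale over the 7 members and 0.23 over all features. At the level of single probes, 0 of 15 kept probes were called, where 21.7% of all kept probes were, and 4 of 15 had an unadjusted p below 0.05, where 37.1% of all did. PYCARD was removed as dim before the test. In every member the values of the breeds overlapped.

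**Figure D1:**
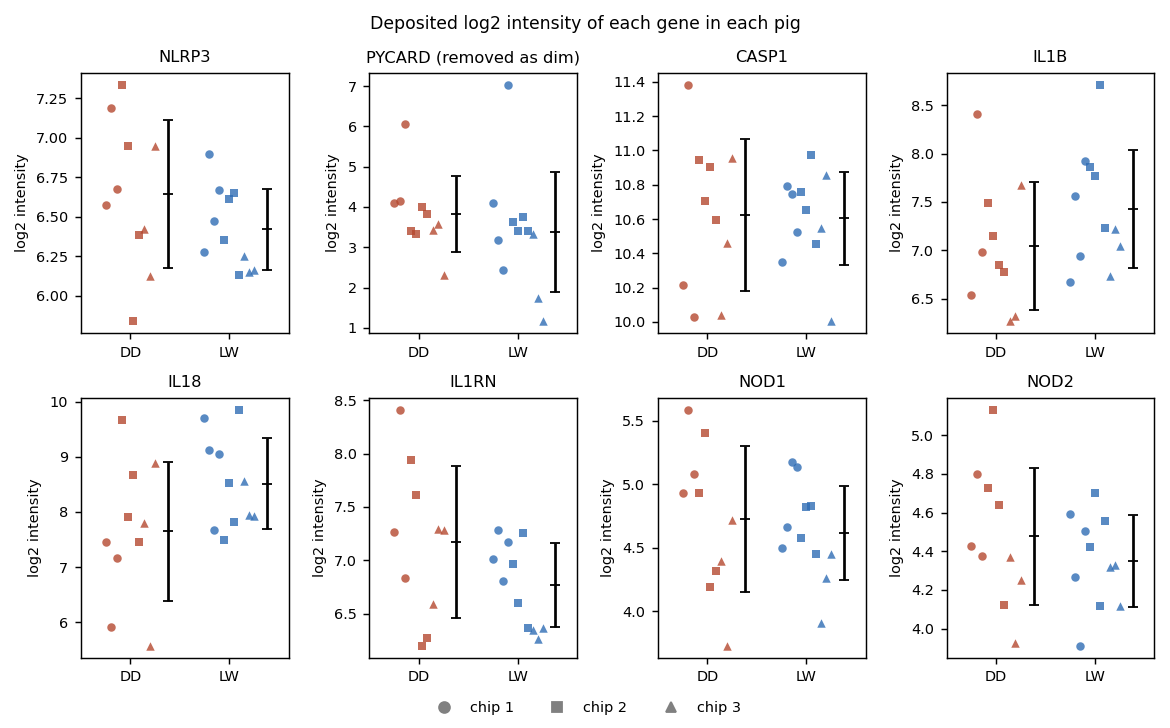
Deposited log2 intensity of each gene (mean of its kept probes, for PYCARD its only probe) in each DD (red) and LW (blue) pig, with the chip as the marker shape and the group mean with its SD as a bar. The groups overlap in all 8 panels, and IL18 spans 5.57 to 9.67 in DD pigs against 7.49 to 9.85 in LW pigs.

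NLRP3, the sensor that recruits PYCARD and CASP1, spans 56892241 to 56977412 of chromosome 2 (Sscrofa11.1, as all positions here). Its log2 intensity had a lowest value of 5.84, a median of 6.63 and a highest value of 7.33 in DD pigs, against 6.13, 6.35 and 6.90 in LW pigs. DD pigs were the more spread group, with 4 of 10 above all LW pigs and 2 of 10 below them. The breed difference was a log2 FC of 0.24 with an SE of 0.15 and a 95% interval of −0.07 to 0.54 (limma adjusted p = 0.251). It was positive on each chip, at 0.23, 0.19 and 0.31, and was 0.18 without DD_06 (limma adjusted p = 0.385). The identical probes gave 0.27 and 0.20 and correlated at r = 0.90 over the 21 arrays.

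The adaptor PYCARD is represented by 1 probe, which the file names in lower case and assigns to a bovine transcript. How well it matches pig PYCARD was not tested, so a low signal may not reflect a low level of the RNA. Its lowest, median and highest log2 values were 2.32, 3.71 and 6.07 in DD pigs and 1.17, 3.40 and 7.03 in LW pigs. It was well above background on 1 DD and 1 LW array, and the pigs DD_08 and LW_07 stood apart from the others as the highest of their breeds. At this signal a breed difference in PYCARD was not detectable. With no filter on dim probes the estimate was 0.53 (limma adjusted p = 0.435).

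CASP1, the protease of the inflammasome, had both probes well above background on all 21 arrays. The gene lies on chromosome 9, from 35188066 to 35199364. Its values ran from 10.03 over a median of 10.65 to 11.38 in DD pigs, and from 10.00 over 10.65 to 10.97 in LW pigs, so the medians were alike and only the pig DD_06 exceeded all LW pigs. Its log2 FC was 0.013 with an SE of 0.15 (limma adjusted p = 0.959), and the 95% interval of −0.30 to 0.32 allows a change of up to 1.25-fold upwards and down to 0.81 of the LW level. Without DD_06 the log2 FC was −0.096 (limma adjusted p = 0.622). Its probes gave 0.035 and −0.0089 and correlated at r = 0.93.

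The cytokine IL1B, the main secreted product of the inflammasome together with IL18, lies on chromosome 3 from 43670126 to 43677125. The lowest, median and highest values of IL1B were 6.27, 6.92 and 8.41 in DD pigs, and 6.68, 7.23 and 8.71 in LW pigs. Most DD pigs were at the lower end, with 3 of 10 below all LW pigs, whereas DD_06 was higher than all LW pigs but LW_14. IL1B had a log2 FC of −0.39 (SE 0.24, 95% interval −0.88 to 0.10, limma adjusted p = 0.242). Without DD_06 it was −0.57, with a limma adjusted p of 0.0442, so the call on IL1B rests on whether this 1 pig is kept. Over all 34393 features the count called also rose without DD_06, from 7172 to 9688, so a gain in calls was not particular to IL1B. On the chips the difference was 0.03, −0.83 and −0.24, and DD_06 lies on the first.

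The IL1B probes were loosely related. A_72_P441479 was well above background on all arrays and gave −0.46 (SE 0.24), while O8281, well above background on 6 DD and 9 LW arrays, gave −0.31 (SE 0.28), and their correlation over the arrays was r = 0.51. The pig genome carries a second interleukin 1 beta gene, IL1B2, for which the array has 3 probes under the name IL-1beta (named here after their values were seen). They gave 0.16, 0.21 and −0.069, none past the threshold (limma adjusted p from 0.298 to 0.872), and no stretch of 15 or more bases was shared with the IL1B probes. Only the first of the IL-1beta probes, A_72_P463511, was well above background on all arrays. It ranged from 6.15 to 7.75 in DD pigs and from 6.11 to 8.08 in LW pigs.

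IL18, a cytokine that drives interferon gamma production by T and NK cells, lies on chromosome 9 from 39839959 to 39861258. Its lowest, median and highest values were 5.57, 7.63 and 9.67 in DD pigs, and 7.49, 8.53 and 9.85 in LW pigs. The values ran over more than 4 log2 units in DD pigs, with 5 of 10 below every LW pig, 2 of those (DD_21 and DD_06) far below the rest, and DD_10 near the top of both breeds. Its log2 FC was −0.87 (SE 0.40, 95% interval −1.70 to −0.03, unadjusted p = 0.0428, limma adjusted p = 0.123), or 1.82-fold lower in DD pigs. It did not pass the threshold after adjustment, and without DD_06 it was −0.65 (limma adjusted p = 0.227).

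The spread of IL18 between pigs was among the widest of the features on the array. After chip and breed means were removed, its SD was 1.07 on the log2 scale, larger than that of 99.3% of all features, whose median SD was 0.37. The other members were nearer to the middle, from the 23.3rd percentile for NOD2 to the 89.3rd for IL1B. The 3 IL18 probes followed each other, with correlations of 0.97, 0.97 and 0.99 over the arrays, and gave a log2 FC of −0.83, −0.94 and −0.83. A further spot carries the sequence of A_72_P232887 under an accession in place of a gene name. It followed that probe at r = 0.99 and gave −0.91 (SE 0.40, limma adjusted p = 0.0982). All 4 spots read the same RNA sample of a pig, and the lowest pig was DD_06 on 2 of them and DD_21 on the others.

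The 2 siblings of each pair were on different chips, so a difference between them also holds any difference between chips, and unrelated pairs were not compared. In IL18, the 2 animals of a litter differed by a median of 1.09 log2 units over 10 sibling pairs, from 0.14 in an LW litter to 2.21 in the DD litter of DD_01 (7.46) and DD_10 (9.67). In the other members the median sibling difference ran from 0.31 for NOD2 to 0.78 for IL1B. Within the chips, IL18 differed between the breeds by −2.04 (chip 1), 0.0022 (chip 2) and −0.73 (chip 3) log2 units. The litters are spread over the chips, and the difference between the chips was not tested. Without chip 2 the log2 FC was −1.75 (limma adjusted p = 0.0222), and without chip 1 it was −0.27 (limma adjusted p = 0.701), so the size of the IL18 difference rests on which chips are read. The fit without chip 2 took a correlation between siblings of −0.58, against −0.11 in the main fit. How far this value moved the adjusted p was not tested. With array brightness as a covariate the log2 FC of IL18 was −1.36 (limma adjusted p = 0.258).

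**Figure D2:**
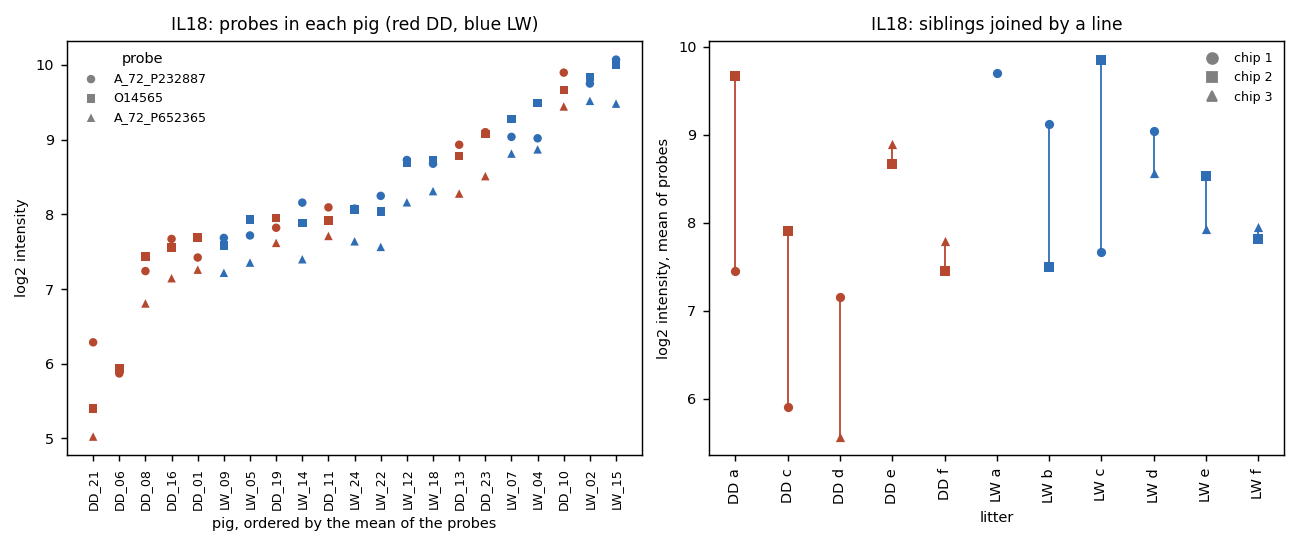
Left, log2 intensity of the 3 IL18 probes (marker shapes) in each of 21 pigs, ordered by their mean, with DD pigs in red and LW pigs in blue. Right, the mean of the probes by litter, with siblings joined and the chip as marker shape. The probes follow each other closely, with DD_21 and DD_06 lowest, and siblings differ by up to 2.21 log2 units.

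The receptor of IL18 was near background on many arrays. IL18R1, its ligand-binding chain, was measured by 1 probe under its symbol and by 2 under the name IL-18RA, which were well above background on 2 to 4 DD arrays and 6 to 10 LW arrays. The probe under the symbol had a lowest, median and highest value of 4.40, 5.20 and 5.45 in DD pigs and 4.94, 5.41 and 6.13 in LW pigs. It gave a log2 FC of −0.32 (limma adjusted p = 0.105), a spot of the same sequence under the other name gave −0.43 (limma adjusted p = 0.0672), and the third probe gave −0.26 (limma adjusted p = 0.113). All estimates lay below 0 and none passed the threshold.

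IL1RN, which blocks the receptor that IL1B uses, had a lowest, median and highest value of 6.20, 7.27 and 8.41 in DD pigs, and 6.26, 6.81 and 7.29 in LW pigs. The upper end belonged to DD pigs, 4 of 10 of them above all LW pigs and DD_06 highest. Its log2 FC was 0.43 (SE 0.21, 95% interval −0.00063 to 0.87, limma adjusted p = 0.137), with 0.43, 0.21 and 0.73 on the chips. Without chip 3 it was 0.24 (limma adjusted p = 0.737), and without DD_06 it was 0.30 (limma adjusted p = 0.260). Signs were thus opposite for the agonist IL1B and its antagonist, but neither difference was called.

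Most of the IL1RN estimate came from 1 probe. A_72_P776040 gave 0.71 (SE 0.34, limma adjusted p = 0.130), with values from 6.75 to 10.07 in DD pigs and 6.63 to 8.59 in LW pigs. A_72_P441444 gave 0.16 (SE 0.12, limma adjusted p = 0.364), with values from 5.59 to 6.75 in DD pigs and 5.59 to 6.18 in LW pigs. A second spot with the sequence of A_72_P441444, again named by an accession, gave 0.17 (SE 0.15). Those identical spots correlated at only r = 0.54 over the arrays, no closer than the different IL1RN probes, at r = 0.53. A_72_P441444 varied less between pigs, with an SD of 0.35 in DD pigs against 1.16 for A_72_P776040.

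NOD1 and NOD2 were close to background. NOD1, on chromosome 18 from 42464667 to 42509135, had a lowest, median and highest value of 3.73, 4.82 and 5.59 in DD pigs and 3.90, 4.57 and 5.18 in LW pigs. Its probes were well above background on at most 3 DD and 5 LW arrays. Its log2 FC was 0.14 (SE 0.15, 95% interval −0.18 to 0.46, limma adjusted p = 0.530). It was 0.063 without DD_06, 0.060 without DD_11 and 0.035 without chip 1. NOD2, on chromosome 6 from 34132127 to 34167446, ran from 3.93 over 4.40 to 5.13 in DD pigs and from 3.91 over 4.33 to 4.70 in LW pigs. The log2 FC of NOD2 was 0.13 (SE 0.12, 95% interval −0.12 to 0.39, limma adjusted p = 0.453), and it was 0.082 without DD_06, 0.067 without DD_11 and 0.082 without chip 1.

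The NOD2 probes share 51 bases, yet they gave −0.065 and 0.33 (limma adjusted p = 0.794 and 0.0700), were well above background on at most 2 arrays of either breed, and correlated at r = 0.26. Another setting took the processed signal of the scanner software and scaled each array to its 75th percentile. It thus changed the background correction and the scaling together. There the log2 FC was 0.77 for NOD1 and 0.62 for NOD2, which put both past the threshold (limma adjusted p = 0.0446 and 0.0367). Which of these changes moved the values was not tested.

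**Figure D3:**
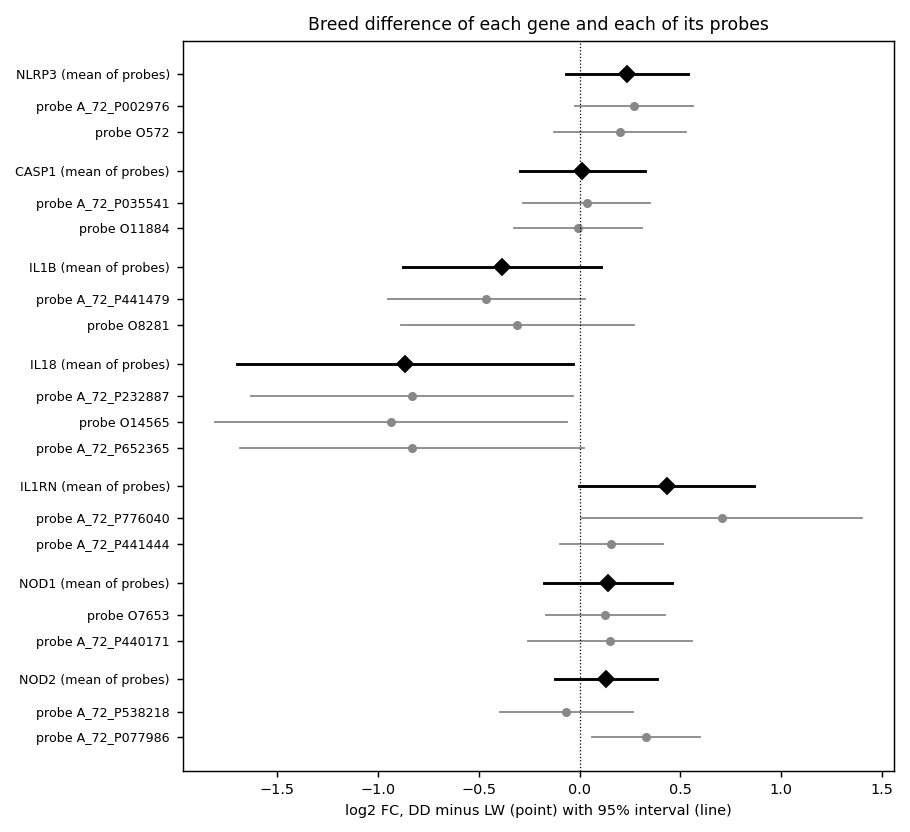
Log2 FC (DD minus LW) with its 95% interval for the 7 genes tested (black diamonds) and for each of their 15 kept probes (grey points). The IL18 probes lie together near −0.9, the IL1RN probes at 0.71 and 0.16, and the NOD2 probes on either side of 0.

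NLRP3, NOD1, IL1B and IL1RN were correlated with each other from pig to pig, while NOD2 and IL18 were less so. After chip and breed means were removed, NLRP3 correlated with IL1RN at r = 0.77, with NOD1 at 0.71 and with IL1B at 0.68 over the 21 pigs, and IL1B with CASP1 at 0.67. The r of NOD1 with IL1B was 0.62 and with IL1RN 0.53, and that of CASP1 was 0.44 with NLRP3, 0.55 with IL1RN and 0.28 with NOD1. NOD2 had an r of 0.11 with CASP1, 0.13 with IL1B, 0.28 with NLRP3 and with IL1RN, and 0.39 with NOD1. For IL18 the r was 0.34 with NOD2 and lay between −0.18 and 0.15 with the others. DD_06 was the highest DD pig for NOD1, CASP1, IL1B and IL1RN and the next to lowest for IL18. Without it the r of NLRP3 with IL1RN was 0.76 and with IL1B 0.66, while that of CASP1 with IL1B was 0.48. Without DD_06 the r of IL18 was 0.54 with NOD2 and 0.30 with NLRP3, and that of NOD2 was −0.10 with CASP1 and −0.065 with IL1B. These are descriptions over pigs that include siblings, from values that share the array of each pig.

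Several marker lists moved with the members. Over the 21 pigs, with chip and breed means removed, the median of 11 monocyte markers correlated with IL1B at r = 0.74, NLRP3 at 0.67 and IL1RN at 0.66. Its r was 0.65 with NOD1, 0.53 with CASP1, 0.44 with NOD2 and −0.072 with IL18. Without DD_06 these 7 values were, in the same order, 0.71, 0.64, 0.60, 0.60, 0.42, 0.37 and 0.086. The median of 5 NK cell markers had the opposite sign, with an r of −0.65 for CASP1, −0.58 for IL1B, −0.53 for NLRP3 and −0.48 for IL1RN. Without DD_06 these were −0.65, −0.55, −0.49 and −0.42. T cell markers had an r of 0.53 with NOD1 and 0.44 with NOD2 (without DD_06, 0.51 and 0.42), and erythroid markers of −0.45 with NOD1 and −0.44 with CASP1 (without DD_06, −0.32 and −0.11). B cell markers had an r of 0.44 with NOD1, 0.39 with NLRP3 and −0.10 with IL18 (without DD_06, 0.48, 0.42 and −0.13). For the neutrophil markers no member exceeded 0.39. For 17 interferon-stimulated genes r was 0.70 with CASP1, 0.63 with IL1B, 0.49 with IL1RN, 0.46 with NOD1 and −0.48 with IL18. Without DD_06 it was 0.48, 0.36, 0.26, 0.31 and −0.30. Between the breeds, the chip-corrected monocyte median ranged from 6.33 to 8.29 in DD pigs and from 6.09 to 7.74 in LW pigs, and of its 11 markers 1 was called higher (CD36) and 2 lower (CD163 and CLEC7A, named after their values were seen). The interferon-stimulated median ranged from 9.51 to 12.06 in DD pigs and from 8.54 to 10.37 in LW pigs, with 10 of 17 genes called higher. Of the T cell markers 3 of 7 were called lower in DD pigs, of the erythroid markers 3 of 7 higher, and of the NK cell markers 0 of 5. Over all features, 9.41% were called lower and 11.4% higher, 20.9% in either direction. In RNA of whole blood, fewer cells of a type and less RNA per cell cannot be told apart, and the part of these marker levels in the members' values was not tested.

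**Figure D4:**
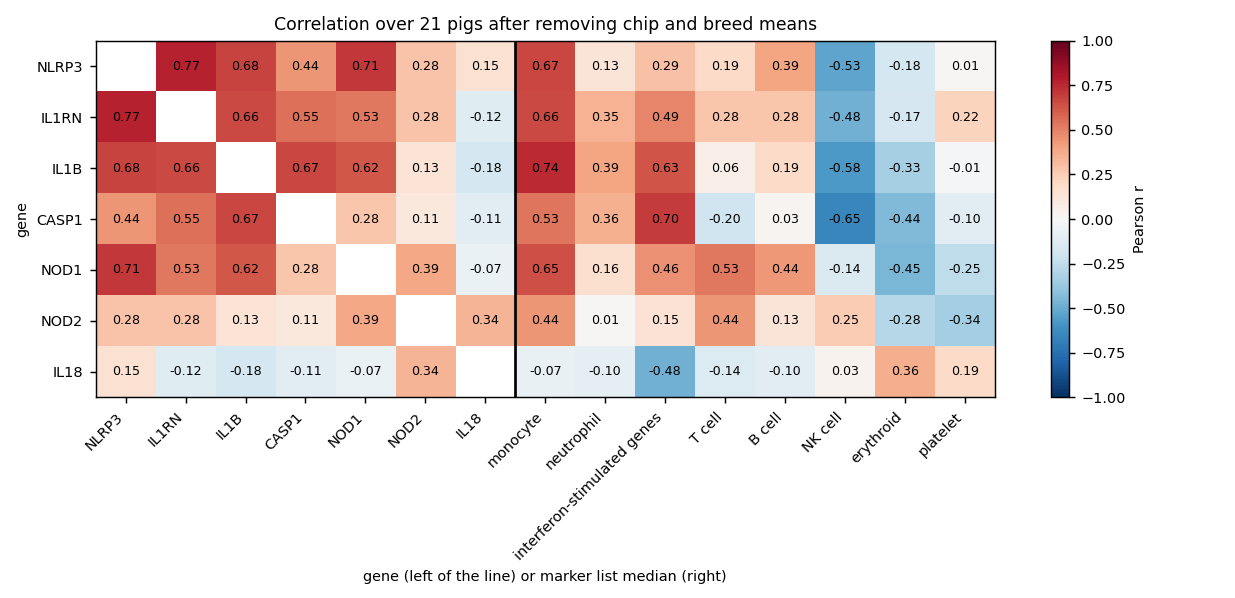
Pearson r over 21 pigs, with chip and breed means removed, between the 7 tested genes (left of the line) and between each gene and the median of 8 marker lists (right). NLRP3, IL1RN, IL1B, CASP1 and NOD1 all have r of 0.53 or more with the monocyte markers, and IL18 has −0.072 there and −0.48 with the interferon-stimulated genes.

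The non-member genes most alike each member in pattern, up to 3 for each, were ranked by r over the 21 pigs with chip means removed. NLRP3 had SIGLEC5, a lectin of myeloid cells (0.89), SERPINB1 (0.84) and RELT (0.82), and NOD1 had NR1H3, the oxysterol receptor LXR alpha (0.81), SIGLEC5 (0.80) and FAM129A (0.78). For CASP1 they were PGD (0.89), SYCP3 (0.85) and CCR2, a monocyte chemokine receptor (0.81), and for IL1B they were RNF145 (0.76), DHRS3 (0.75) and TLR4, the endotoxin receptor (0.73). IL1RN was followed most closely, by GADD45B (0.92), ABHD2 (0.92) and IFIT3, an interferon-stimulated gene (0.90). NOD2 had TGM3 (0.82), ACSL1 (0.75) and CGA (0.75). None of these was called between the breeds (limma adjusted p from 0.0568 to 0.927). For IL18, FNDC3B (0.73) and NFIL3, a transcription factor (0.72), are given. With breed means also removed, their r with IL18 was 0.66 and 0.69. FNDC3B was called lower in DD pigs, by a log2 FC of −0.60 (limma adjusted p = 0.0262), and NFIL3 was not called (−0.18, limma adjusted p = 0.411).

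Of the genes that act with the members, 8 of 59 tested in 4 pathway lists were called, 4 higher and 4 lower in DD pigs, where 20.9% of all features were. The median log2 FC of the 59 was −0.00053, against −0.040 over all features. Without chip 3, 0 of the 59 were called, where 524 of all 34393 features were. With array brightness added to the model, 0 of the 59 were called, where 739 of all features were. Many of the genes of these lists were not named on the array and are not analysed here, among them RIPK2, NLRC4, AIM2, IL1R2, IL1RAP, IL18RAP and IL18BP.

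Among the regulators and effectors of inflammasomes, 1 of 18 was called higher and 1 lower, and the list had a median log2 FC of 0.029. NEK7, a kinase that binds NLRP3 and is needed for its assembly, had a lowest, median and highest value of 9.10, 9.74 and 10.23 in DD pigs against 9.66, 10.17 and 10.45 in LW pigs, with 4 of 10 DD pigs below all LW pigs. NEK7 was lower in DD pigs, with a log2 FC of −0.38 and an SE of 0.11 (limma adjusted p = 0.0252). BRCC3, which removes ubiquitin from NLRP3, was higher in DD pigs, with 8.07, 8.58 and 8.96 against 7.92, 8.29 and 8.91 in LW pigs. It had a log2 FC of 0.31 with an SE of 0.10 (limma adjusted p = 0.0379). Both genes are named because they were called with the same sign on all 3 chips, so that agreement is not separate evidence for the calls. GSDMD, the pore protein that CASP1 cleaves, was well above background on 0 DD and 4 LW arrays and gave −0.12 (limma adjusted p = 0.535). NLRC5, a member of the NOD-like receptor family, gave 0.41 (limma adjusted p = 0.0775), with −0.021 on chip 2 and 1.19 on chip 3.

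In NOD1 and NOD2 signalling, 2 of 26 genes were called higher and 2 lower. The median log2 FC of this list was −0.048. SLC15A2, a transporter of peptides, had a lowest, median and highest value of 6.03, 6.57 and 7.41 in DD pigs against 5.63, 5.97 and 6.53 in LW pigs, and 5 of 10 DD pigs were above all LW pigs. SLC15A2 had a log2 FC of 0.51 with an SE of 0.14 (limma adjusted p = 0.0216). MAPK13, a p38 kinase, was lower, with 5.88, 6.88 and 7.45 in DD pigs against 6.92, 7.51 and 8.69 in LW pigs. MAPK13 had a log2 FC of −0.80 with an SE of 0.19 (limma adjusted p = 0.00858), which was the largest called difference of the 4 lists. MAPK9, a JNK kinase, was lower at a log2 FC of −0.32 with an SE of 0.11 (limma adjusted p = 0.0470). BIRC2, a ubiquitin ligase of the pathway, was called higher at 0.55 (limma adjusted p = 0.0275). It is named after its values were seen, since its sign was not the same on all chips (−0.036, 0.61 and 1.13).

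Of the IL1 family ligands and receptors, 3 were tested and 1 was called. IL1RAPL2, a receptor-like protein known mainly from the nervous system, was higher at 0.45 (SE 0.14, limma adjusted p = 0.0328), although it was well above background on only 4 DD and 8 LW arrays. IL1A, the other interleukin 1 agonist, gave −0.053 (limma adjusted p = 0.771), and was named after its values were seen. IL1R1, the signalling receptor for IL1B, was well above background on 0 arrays and removed as dim. In IL1 receptor signalling 0 of 12 genes were called higher and 1 lower, and the median log2 FC was 0.039. This was IRAK2, a kinase of the receptor complex, with a lowest, median and highest value of 6.22, 6.57 and 7.13 in DD pigs against 6.44, 6.93 and 7.27 in LW pigs and a log2 FC of −0.34 with an SE of 0.10 (limma adjusted p = 0.0286).

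**Figure D5:**
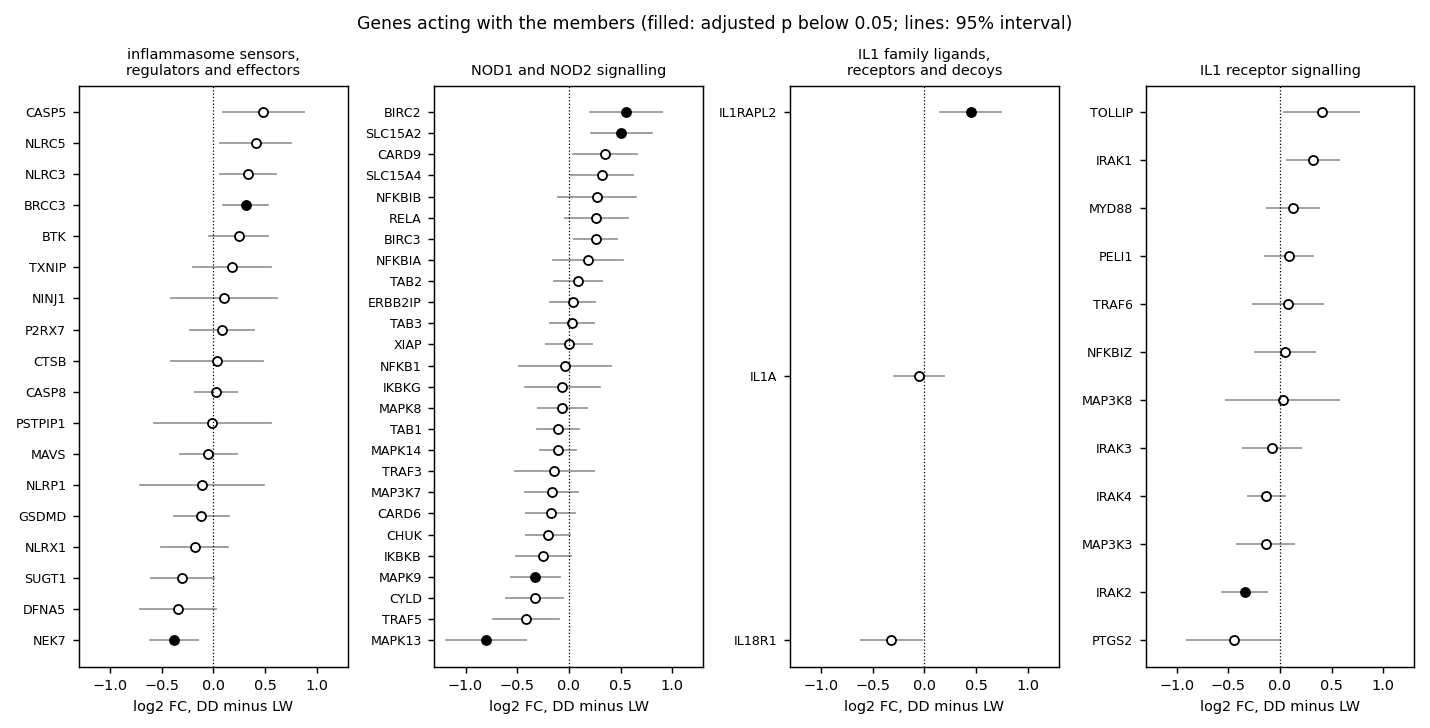
Log2 FC (DD minus LW) with its 95% interval for the 59 tested genes of 4 pathway lists, ordered within each list, with called genes filled. The called genes are NEK7, BRCC3, BIRC2, SLC15A2, MAPK9, MAPK13, IL1RAPL2 and IRAK2, and the open points lie between −0.45 and 0.49.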

How the data were processed

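Whole blood RNA of 21 pigs was measured on a one-colour array. Of 24 arrays made, 3 had been left out as outliers by the authors. Per the labels, spots were read with Agilent Feature Extraction 10.7.3.1. Intensity values of the scanner files were deposited without normalization between arrays. The main values are the log2 matrix deposited by the authors, who background corrected (normexp) and quantile normalized it. Quantile normalization gives every array the same distribution, so a value is relative to the other probes of its array.

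From there, the 25% of probes with the lowest mean were removed and kept probes of a name averaged. Breeds were compared with limma 3.58.1 (R 4.3.3), as in the study's methods, with fixed terms for breed and chip and a random term for the sow (duplicateCorrelation), and Benjamini-Hochberg adjustment over all 34393 features. Calls have an adjusted p below 0.05. Plots used Python with matplotlib 3.10.9. The fit was tested on simulated data. No probe was saturated. Precision is limited by how many arrays there are.

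The members and lists were chosen with earlier results of these data known. Named genes are the members, list genes called with the same sign on all 3 chips, direct partners of a member, and the 3 most alike genes per member, of which 1 for IL18 is not reported here. Coordinates and symbols are from RefSeq (Sscrofa11.1). Other ways of processing are given with the closing observations. Levels were not compared between probes.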

Additional observations from a re-analysis of the deposited data

Results flagged for a closer look

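PYCARD in the pig DD_08 had a log2 value of 6.07, far from the other DD pigs. Its gap to the next was 0.51 of the range of the group, above Dixon's 95% critical value for 10 animals. Such gaps are met by chance in about 5% of groups, and 8 genes were looked at. The probe was well above background on 1 DD and 1 LW array.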

How the results depend on the processing

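The count of members called was 0 in the deposited values. It was 2 with the scanner software's processed signal scaled to the 75th percentile (NOD1 at 0.77 and NOD2 at 0.62, both near background). It was 1 without chip 2 (IL18), and 0 to 1 with each pig left out (1 without DD_06, for IL1B). Use of the scaled processed signal moved the median of all features by 0.11 on the log2 scale. The directions of NLRP3, NOD1, IL1B, IL18 and IL1RN were kept under every alternative. NOD2 was −0.023 without chip 2. CASP1 was −0.0090 for the brightest probe, −0.11 without chip 2, 0.15 with brightness as a covariate, and −0.096 to 0.090 with each pig left out. The count over all features was 7172, and 4397 with no filter, 1866 with no chip term and 4894 with no sow term. It was 7697 without chip 1, 4807 without chip 2, 524 without chip 3 and 739 with brightness as a covariate. With each pig left out it was 3606 to 9688. Pathway genes called were 8, and 4 with no filter. In alternatives chosen after seeing the data they were 0 without chip 3, 0 with brightness as a covariate and 11 without DD_06. The causes were not tested. No pairing between the breeds was possible because DD and LW pigs are different animals from different litters. The filter on signal well above background left NOD1 and NOD2 untested. Signal near background limits PYCARD, NOD1 and NOD2.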
